A study of Mus musculus with 2 samples.

Results

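Rare T cell receptor families are cells whose beta chain sequence was seen in 1 or 2 cells of a transferred T cell population. A cell was counted when its RNA barcode carried exactly 1 distinct productive beta chain (TRB) sequence of the complementarity determining region 3 (CDR3), and a family is all such cells with the same CDR3 bases. There were 399 such cells in 340 families, 281 families of 1 cell and 59 families of 2 cells. They made up 78.7% of the 432 families but 10.3% of the 3885 cells with exactly 1 TRB, and of the 10387 barcodes of the RNA library 6258 had no productive TRB and 244 had 2 or more. Their states were set against the 614 cells of the 27 families of 10 to 49 cells, called middle families here, which held 10 to 40 cells each.

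The cells are GD2TIF cells, activated T cells of Cas9 transgenic mice that took up a retrovirus directed against the genes Bcor and Zc3h12a and carrying 14g2a, a chimeric antigen receptor against the ganglioside GD2. C57BL/6 mice with an intact immune system received 1000000 of them each. After 2 months 1000000 CD8+Thy1.1+ cells were sorted from spleen, and 1 RNA library and 1 TCR library were made on Singleron microwell chips with barcoded beads. All cells compared below share this genotype, treatment, organ and time, there is no untreated group, and how many mice gave cells is not stated in the sources used here.

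A T cell builds its beta chain by joining V, D and J segments with random bases at the joins, and the CDR3 spans those joins and touches the antigen. Because a cell passes the rearranged gene to its daughters, cells with the same CDR3 bases are usually read as descendants of 1 cell, and a small family as one that divided little, survived little or was sampled little. In CD8 T cells, naive and central memory states are marked by homing receptors and by the receptor for interleukin 7, and effector states by chemokines and granule proteins.

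Rare families and middle families were sampled at like depth. Rare cells held 804559 unique molecular identifiers (UMIs), with medians of 1872 UMIs and 954 genes per cell and a median mitochondrial share of 3.41%. Middle families held 1319221 UMIs, with medians of 1890.5 UMIs, 973 genes and 3.57%. Levels are UMIs summed over cells per 1000000 UMIs (CPM), where 3 UMIs equal 3.73 CPM in rare and 2.27 CPM in middle families. There is 1 library of each kind and cells are not replicates, so no test was run. Every interval given is a 95% interval of counting error, of UMIs for levels and folds and of the items counted for shares. The spread between cells, between families and between mice is not in these intervals. All 399 rare cells passed the filter on genes and mitochondrial share. Of the 5479 barcodes of the TCR library 4590 were also in the RNA matrix.

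**Figure D1:**
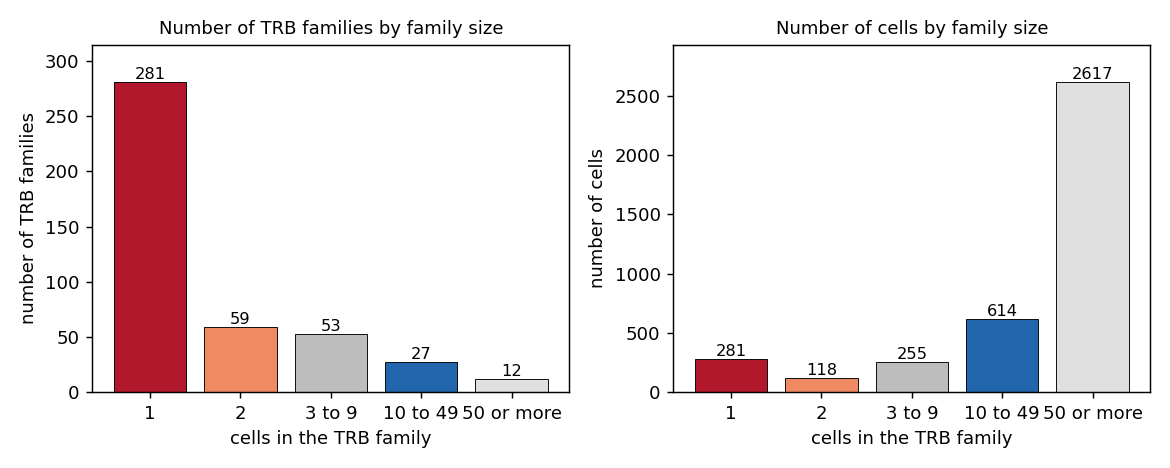
Number of TRB families (left) and of cells (right) by the number of cells in the family. Families of 1 or 2 cells are 340 of 432 families, while the 12 families of 50 or more hold 2617 cells.

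Some rare sequences lay next to the sequence of a large family. Of the 340 rare TRB sequences 24 (7.06%, 4.57 to 10.3) differed by 1 base from the TRB of a family of at least 10 cells, and 18 of these lay next to a family of at least 50. None of the 27 middle TRB sequences (0%, up to 12.8) lay within 1 base of another family of at least 10. The pairs below are shown because they set a rare sequence beside the large family it resembles. The capital marks the base that differs, positions are counted from 1 at the 5′ end of the CDR3, and in each change the base of the larger family comes first.
Family of 883 cells: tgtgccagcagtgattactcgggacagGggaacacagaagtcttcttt
Rare, G28T: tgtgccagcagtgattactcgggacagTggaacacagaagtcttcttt
Family of 600 cells: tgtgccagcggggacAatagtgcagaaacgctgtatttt
Rare, A16G: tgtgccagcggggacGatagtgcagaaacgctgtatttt
Family of 151 cells: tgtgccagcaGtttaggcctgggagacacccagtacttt
Rare, G11T: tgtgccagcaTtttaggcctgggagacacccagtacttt
Family of 23 cells: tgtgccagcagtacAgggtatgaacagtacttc
Rare, A15T: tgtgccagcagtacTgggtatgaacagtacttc
Each of the 24 sequences was found in 1 cell. The rare cells with G28T, A16G and G11T carried a productive alpha chain (TRA) of the larger family, with 10, 28 and 17 UMIs behind the beta chain. The rare cell with A15T, with 31 UMIs, carried another TRA and another V gene than the family of 23 cells.

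Over the 24 cells, 13 shared a TRA with the larger family and 11 carried other TRA sequences. In 7 the changed base left the amino acids the same, 21 had the same V gene, and 9 of the changes were G to T. The beta chain was backed by 2 to 48 UMIs, with a median of 9.5. Whether these sequences are families of their own or copies of the larger family's sequence with a base error was not tested.

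The second chain gave another link to large families. A TRA found in at least 2 cells of some family of at least 10 was carried by 77 of the 399 rare cells (19.3%, 15.5 to 23.5), against 521 of 614 middle cells (84.9%), where a cell's own family counts. Most rare cells had exactly 1 TRA, 320 of 399 (80.2%), while 54 had 2 and 25 had 0. Among the middle cells the numbers were 460, 103 and 51. Of the 59 rare families of 2 cells, 33 had a TRA in common between both cells, 21 had different TRA sequences and 5 had a cell with no TRA. Among families with a TRA in both cells the common share was 61.1% (46.9 to 74.1), and among pairs of cells within middle families it was 66.9%.

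The receptors of rare families were backed by as many molecules as those of middle families. The TRB contig had a median of 11 UMIs in both, with quartiles of 7 and 16, and 2 rare cells and 1 middle cell had 1 UMI. The constant region checked the join of the libraries: Trbc1 made up 63.2% of the TRBC UMIs in rare cells with a TRBC1 contig and 11.1% in those with a TRBC2 contig, against 67.8% and 11.5% in middle cells. Of rare cells 26.8% (22.5 to 31.5) had a TRBC1 contig, against 34.0% (30.3 to 37.9) of middle cells. These intervals count cells, but cells of a family share their rearranged beta chain gene. The 614 middle cells come from 27 families, so their interval is too narrow for a comparison of the groups.

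The 340 rare sequences used 22 V assignments and 12 J genes, and the 27 middle sequences 13 and 10. With each sequence counted as 1, the assignment TRBV12-2+TRBV13-2, in which the contig was given both genes, led with 40 of 340 (11.8%), followed by TRBV13-1 with 28 (8.24%). TRBJ2-7 was the leading J gene with 60 sequences (17.6%, 13.7 to 22.1), ahead of TRBJ1-1 with 50 (14.7%). In middle families TRBJ2-7 had 7 of 27 (25.9%, 11.1 to 46.3) and TRBJ1-1 5 of 27 (18.5%), so with 27 sequences no difference was detectable. The mean CDR3 length was 13.9 amino acids in both (SD 1.56 over 340 and 1.63 over 27 sequences).

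Among the genes higher in rare cells were the chemokine genes Ccl5 and Ccl4 and the chemokine receptor genes Cxcr6 and Cxcr3, while others of these families were not called, such as Xcl1 (0.828), Cxcr4 (0.820) and Ccr7 (0.932). Ccl5, a chemokine that memory CD8 T cells make in quantity, was 4.22-fold higher, Cxcr6, a receptor of T cells that settle in tissues, 5.21-fold, and Cxcr3, the receptor for interferon-induced chemokines, 3.28-fold. Gpr183, an oxysterol receptor that places lymphocytes within the spleen, was 2.22-fold higher. Lower in rare families were Sostdc1, a secreted antagonist of bone morphogenetic protein and Wnt signals, at 0.39 of the middle level, and Ctdp1, a phosphatase of RNA polymerase II, at 0.44.

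A gene counts as higher or lower here when it was past 1.5-fold, had non-overlapping intervals and reached 100 UMIs over both groups together. Of 3500 genes tested, 39 were higher (1.11%) and 32 lower (0.914%), or 71 in either direction (2.03%), and the median fold was 0.992. All 39 and all 32 lay on the same side of the middle level in families of 1 cell and in families of 2. The genes were picked by the pooled level of these same families, so a shared side is no separate support. Under the whole rule families of 1 cell alone kept 21 and 22 of the calls, and families of 2 cells alone 9 and 8. Without the cell of most UMIs on each side, 37 and 32 stayed past 1.5-fold. With the 27 middle families weighted equally, 33 and 27 stayed past that fold, but 25 and 21 met the whole rule. Without the 24 cells next to a large family 39 genes were higher and 39 lower of 3449 tested. Of these, 33 and 27 were among the calls above. Without these 24 cells and the cells with a TRA of a large family the counts were 42 and 34 of 3262 tested, with 29 and 22 among those calls.

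Cxcr6 (ENSMUSG00000048521) was at 134 CPM (110 to 162) in rare cells, from 108 UMIs in 40 cells, and at 25.8 (17.8 to 36.0) in middle cells, from 34 UMIs in 19 cells. Among the 27 middle families it ranged from 0 through a median of 0 to 249 CPM. Thus 15 of the 27 had no UMI and 1 lay above the rare cells, and the fold was 5.21 (3.51 to 7.90). Families of 1 cell were at 108 CPM (82.5 to 138) and families of 2 cells at 197 (145 to 262).

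Cxcr3 (ENSMUSG00000050232) was at 107 CPM (85.5 to 132) in rare and 32.6 (23.6 to 43.9) in middle cells, a fold of 3.28 (2.25 to 4.85). It was spread over 58 rare cells, none with more than 5 UMIs. The middle families ranged from 0 to 304 CPM with a median of 0, 16 had no UMI and 3 lay above the rare cells. Families of 1 and of 2 cells were alike, at 108 and 105 CPM.

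Ccl5 (ENSMUSG00000035042) was at 2345 CPM (2241 to 2454) in rare and 556 (517 to 598) in middle cells, a fold of 4.22 (3.87 to 4.60). The middle families spanned 37.3 to 4837 CPM around a median of 137, so they differed among themselves by more than the groups did. Of the 27 families 3 lay above the rare cells and 24 below, and the largest middle family held 29.7% of the middle UMIs. Families of 2 cells were at 2904 CPM (2691 to 3128) and families of 1 cell at 2110 (1992 to 2233).

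Of the markers proposed for rare families, Gpr183 and Il7r were higher and Dapl1 had too few UMIs to be tested. Gpr183 (ENSMUSG00000051212) was at 124 CPM (101 to 151) in rare cells, from 100 UMIs in 59 cells, and at 56.1 (44.0 to 70.4) in middle cells. Its fold was 2.22 (1.62 to 3.03), and the middle families ranged from 0 through a median of 40.4 to 395 CPM, 3 of them above the rare cells. Against middle families of 10 to 19 cells the Gpr183 fold was 1.43, which is not past the threshold.

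Il7r, which encodes the alpha chain of the interleukin 7 receptor, was at 140 CPM (116 to 169) in rare and 87.9 (72.7 to 105) in middle cells, a fold of 1.60 (1.22 to 2.09). The call rests on families of 1 cell, at 161 CPM (129 to 197), because families of 2 cells, at 92.2 (57.8 to 140), were at 1.05 of the middle level. It was lost in 7 of 25 alternative settings, among them middle families weighted equally (1.47) and cells with exactly 1 TRA (1.31). Dapl1, a gene of naive T cells, was at 55.9 CPM (40.8 to 74.8) from 45 UMIs in 22 rare cells and at 33.4 (24.2 to 44.8) from 44 UMIs in 27 middle cells.

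**Figure D2:**
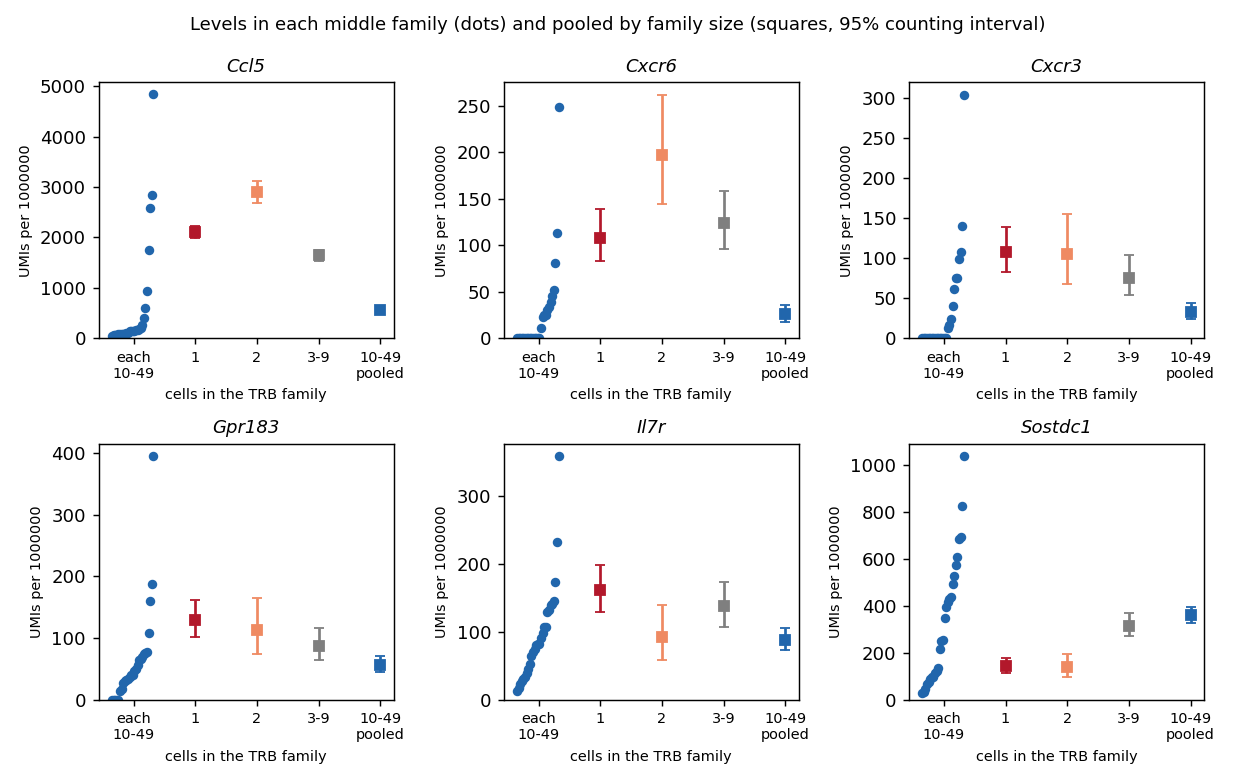
Levels in UMIs per 1000000 of 6 genes; dots are the 27 middle families in ascending order, and squares with 95% counting intervals are families pooled by size. For Ccl5 and Cxcr6, 3 and 1 of the middle families lie above the rare cells, and for Sostdc1 16 do.

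The remaining genes named by fold have varied roles. Id2, a transcriptional regulator that favours effector T cells, was at 195 CPM in rare and 94.0 in middle cells, a fold of 2.08 (1.63 to 2.65), and 4 of 27 middle families lay above the rare cells. The immune transcript AW112010 was at 557 CPM (506 to 611) against 305 (276 to 337), a fold of 1.82 (1.59 to 2.09). Here the rare level lay outside the middle families, which ranged from 95.6 to 481 CPM with a median of 298. Pik3r5, a regulatory subunit of phosphoinositide 3-kinase gamma, was 2.79-fold higher and Rbpj, the transcription factor of Notch signalling, 1.82-fold. Cyb5b, a cytochrome b5 of mitochondria, was 2.17-fold higher, the linker histone gene Hist1h1e 1.95-fold and Sucla2, an enzyme of the citric acid cycle, 1.83-fold. Ppp1r15b, which directs a phosphatase to a translation factor, was 1.78-fold higher, the centrosome gene Pcnt 1.78-fold and the nuclear ATPase gene Morc3 1.77-fold. The chemokine gene Ccl4 was 2.04-fold higher, with 19 of 27 middle families at 0 and 53.1% of the middle UMIs in 1 family.

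Among genes lower in rare cells, Sostdc1 (ENSMUSG00000036169) was at 142 CPM (117 to 170) against 360 (328 to 394), a fold of 0.39 (0.32 to 0.48). The middle families ranged from 27.6 through a median of 256 to 1041 CPM, so 16 of 27 lay above the rare cells and 11 below. Ctdp1 was at 79.5 CPM against 180 and lay above the rare level in 21 of 27 middle families. Mylpf, a myosin light chain of fast skeletal muscle, had the most extreme fold, 0.13 (0.06 to 0.23), but 95.1% of its middle UMIs came from 1 family of 35 cells and 22 of the 27 families had none. The Babam2 fold of 0.51 likewise drew 32.1% of its middle UMIs from 1 family.

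The other genes named as lower were less tied to 1 family, with leading shares of 10.8% to 19.3%. They were Tprg at 0.43, Dhrs3, a retinaldehyde reductase, at 0.45, Art3 at 0.48, Fam84a and Dcp1b, the latter a factor of messenger RNA decapping, both at 0.52, and Tln2, a talin that links integrins to actin, at 0.53. Of 5 immunoglobulin and TCR constant genes counted apart, Ighd was lower, at 65.9 CPM against 134 (0.49), and the other 4 were not called. Among these, Igkc was past 1.5-fold, at 39.8 CPM (27.2 to 56.1) against 65.2 (52.1 to 80.5), but its intervals overlapped.

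**Figure D3:**
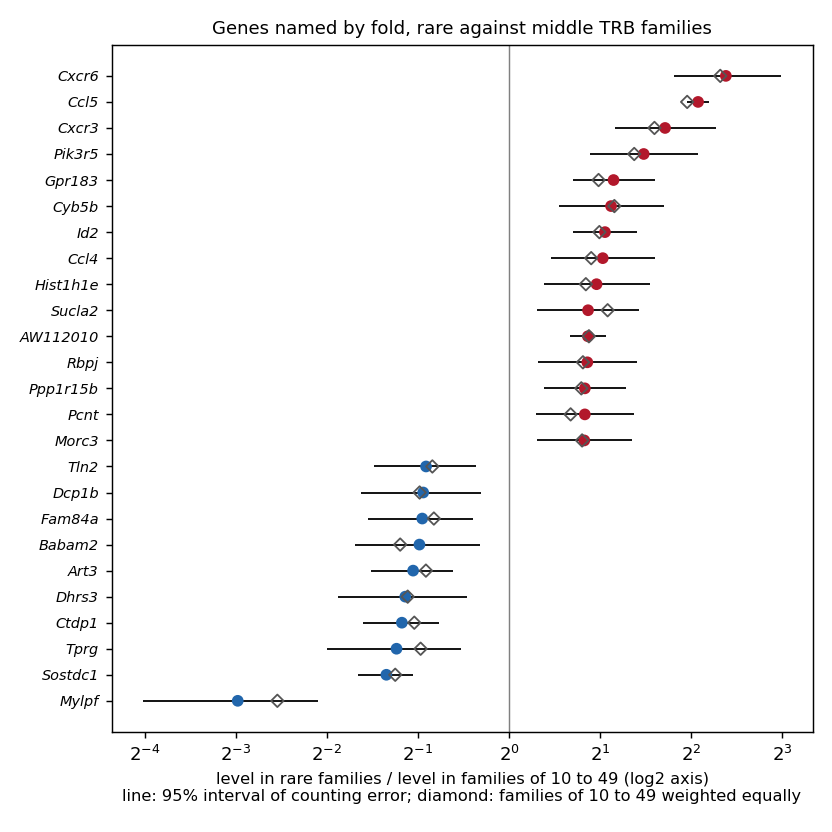
Fold of the level in rare families over that in middle families on a log2 axis for the 15 genes named as higher and the 10 named as lower; lines are 95% counting intervals and diamonds weight the 27 middle families equally. Cxcr6, Ccl5 and Cxcr3 lie farthest to the right, and Mylpf, carried by 1 middle family, farthest to the left.

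By gene group, naive and resting genes did not stand higher in rare cells as a whole. Of the 9 tested of 15, Il7r was higher and none was lower, the median fold was 0.986, and the summed level was 3311 CPM against 3315, a fold of 0.999 (0.952 to 1.05). Tcf7, a factor needed by stem-like T cells, was at 701 CPM against 692. Lef1, the partner factor of Tcf7, was at 347 CPM against 459, a fold of 0.75. Below 100 UMIs, and so not tested, the chromatin organiser gene Satb1 was at 49.7 CPM against 18.2 and the complement regulator gene Cd55 at 57.2 against 24.3. Of 14 memory and stemness genes tested, many of them shared with that list, Il7r was higher, and the median fold was 0.992.

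Cells with at least 3 different naive and resting genes were as common in both groups. After each cell was thinned to 1000 UMIs they were 40.7% (35.7 to 45.9) of 378 rare cells and 40.1% (36.1 to 44.2) of 584 middle cells. Without thinning they were 67.9% and 71.5%.

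Of 17 circulation and homing genes tested, Gpr183, Cxcr3 and Cxcr6 were higher and none was lower, with a median fold of 1.02. Klf2, the factor that keeps T cells in circulation, was at 2575 CPM against 2513 and its target S1pr1, the egress receptor, at 195 against 186. The adhesion gene Cd44 was at 111 against 114, and the retention gene Cd69 at 190 against 243.

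Of 6 cytokine and chemokine genes tested, Ccl5 and Ccl4 were higher, and the median fold was 1.24. Ccl3, a chemokine gene released beside Ccl4, stayed below the UMI minimum with 59 rare UMIs in 13 cells and 16 middle UMIs. The interferon gamma gene Ifng was at 122 CPM against 98.5, and Xcl1, which draws dendritic cells, at 252 against 305.

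Of 6 cytotoxic genes tested, Gzmk was higher and none lower, at 222 CPM (191 to 258) against 145 (125 to 167), a fold of 1.54 (1.25 to 1.89). Without the 2 rare cells of most Ccl5 the Gzmk fold was 1.41, not past the threshold. The granule gene Nkg7 was at 2772 CPM against 2277, a fold of 1.22, and perforin (Prf1) at 196 against 205. Summed over the list, the level was 1.15 (1.10 to 1.20) of that in middle families. Gzma was carried by 25 UMIs in 7 rare cells and by 2 UMIs in middle cells, too few to be tested.

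Inhibitory receptors were not higher. None of the 7 tested was called in either direction, the median fold was 0.840, and the summed level was 0.886 (0.815 to 0.963) of the middle level, but 1.03 in families of 2 cells. The PD-1 gene Pdcd1 was at 316 CPM (278 to 357) against 376 (344 to 411), Tigit at 58.4 against 86.4 and Btla at 63.4 against 93.2. Of 11 effector and exhaustion transcription factors tested, Id2 and Rbpj were higher and none was lower. Tox, a factor of chronically stimulated T cells, was at 584 CPM against 711, Nfatc1, which acts below the T cell receptor, at 348 against 493, and Ikzf2 at 176 against 262.

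Other groups held few calls, but over all 3500 genes tested only 2.03% were called. A group of this size with no call or 1 is therefore no result about its genes. Of 9 interferon and Ly6 genes tested, Gbp7 was lower (0.65) and none higher, and Ly6c2, with 51 rare and 23 middle UMIs, was at 63.4 CPM against 17.4. None of the tested genes was called among 15 of T cell identity, 12 of immediate early and stress response, 7 of glycolysis, 5 of T cell receptor signalling, 5 of survival and 2 of proliferation. Of 8 cytokine receptor genes tested Il7r alone was called. Of 4 genes tested that were picked from the largest families of these libraries, Sostdc1 was lower. The targeted genes were at like levels, Bcor at 188 CPM (159 to 220) against 171 (150 to 195) and Zc3h12a at 52.2 (37.6 to 70.6) against 44.7 (34.0 to 57.7), and a transcript level does not check an edit.

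Markers of other cell types differed in level within each list. The B cell genes Cd79a, Pax5, Blk, Cr2 and Fcer2a, the NK cell genes Ncr1, Klrb1c and Klra4, the monocyte genes Lyz2, Csf1r, C1qa and C1qb, and Foxp3 had no UMI in rare cells. In middle cells Cd79a had 2 UMIs and C1qb 1, and the rest of these genes had none. Other members of these lists were well above 0, among them Cd22 at 88.2 CPM in 49 rare cells (a fold of 1.18), Bst2 of the dendritic list at 98.2 against 72.0 and Pecam1 of the stromal list at 159 against 215. Summed B cell markers were at 119 CPM in rare and 113 in middle cells, where families ranged from 0 to 281, and 1 of 10 was tested and not called. The summed NK list, which holds the memory factor Eomes, was at 316 against 287, the CD4 and regulatory T cell list, which holds Ctla4 and Ikzf2, at 317 against 377, the dendritic list at 122 against 96.3 and the stromal list at 159 against 215. The part of these transcripts in the differences was not tested. The monocyte list was at 53.4 against 94.8, and its tested gene Ms4a6c was lower (0.58). The genes of T cell identity were present, with Cd3e at 1572 CPM, Cd8a at 263 and Cd8b1 at 486 in rare cells.

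The Ccl5 difference came mainly from a few cells. Of the 399 rare cells 257 had no Ccl5 UMI, 95 had 1 to 4, 14 had 5 to 9 and 33 had at least 10. Those 33 cells (8.27%, 5.76 to 11.4) lay in 29 families and held 1660 of 1887 Ccl5 UMIs (88.0%). In middle families 18 of 614 cells (2.93%, 1.75 to 4.59) in 7 families reached 10 UMIs, and they held 68.1% of the middle UMIs. The bound is a range on a per-cell count, not a cell type, and 11 of the 33 rare cells lay at 10 to 14 UMIs. Their median depth was 2156 UMIs against 1851.5 in the other rare cells.

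**Figure D4:**
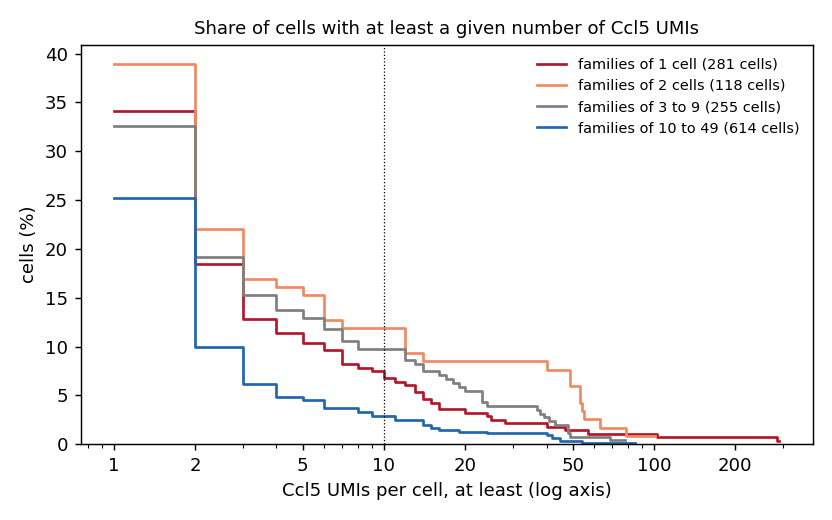
Share of cells in percent with at least the number of Ccl5 UMIs on the horizontal log axis, by family size; the dotted line marks 10 UMIs. At 10 UMIs the shares are 6.76% in families of 1 cell, 11.9% in families of 2, 9.80% in families of 3 to 9 and 2.93% in middle families.

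The extreme was 2 cells with 291 and 285 Ccl5 UMIs, each the lone member of its family, followed by cells of 102 and 101. Without the top cell on each side the Ccl5 fold was 4.03. Without cells of at least 10 UMIs on both sides Ccl5 was at 312 CPM (273 to 355) against 183 (160 to 208), a fold of 1.70. The receptors of the leading 2 cells are shown because they are the clearest case of a rare receptor on a cell full of Ccl5. No base is marked in them.
Rare, 291 Ccl5 UMIs, TRBV12-2 and TRBJ1-1: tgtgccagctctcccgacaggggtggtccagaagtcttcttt
Rare, 285 Ccl5 UMIs, TRBV1 and TRBJ1-2: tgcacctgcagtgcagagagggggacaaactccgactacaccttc
Their beta chains had 18 and 11 UMIs, and neither lay within 1 base of a family of at least 10 nor carried a TRA of such a family.

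Families of 2 cells show whether cells of a family were alike. In 4 of 59 families both cells had at least 10 Ccl5 UMIs, in 6 families 1 cell did and in 49 neither. The 4 sequences are shown as the rare receptors whose cells were both rich in Ccl5, again with no base marked.
Rare, 78 and 11 Ccl5 UMIs: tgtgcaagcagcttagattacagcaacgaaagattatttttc
Rare, 62 and 48 Ccl5 UMIs: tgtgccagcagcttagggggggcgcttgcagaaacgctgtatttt
Rare, 54 and 13 Ccl5 UMIs: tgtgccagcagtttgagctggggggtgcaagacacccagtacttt
Rare, 48 and 39 Ccl5 UMIs: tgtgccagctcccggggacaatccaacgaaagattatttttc
The cells of the upper 2 families shared a TRA, and those of the lower 2 did not. Each of the lower 2 families held a TRA of a family of at least 10, and the upper 2 did not. At a bound of 1 UMI, both cells had Ccl5 in 14 families, 1 cell in 18 and neither in 27.

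Pooled, the 33 Ccl5-rich rare cells were higher in other effector transcripts, but not every cell carried them. Gzma was found in 7 rare cells in all, 1 of which held 9 of its 25 UMIs, so most of the 33 had none. The cell of 291 Ccl5 UMIs had no UMI of Cxcr6 or Gzma. As these cells were picked by Ccl5, their levels are a description. Cxcr6 was at 794 CPM (608 to 1020) in them and at 64.6 (47.5 to 85.9) in the other 366 rare cells, Gzma at 313 (200.2 to 465) and 1.37 (1 UMI), and Gzmk at 820 (630 to 1050) and 159 (132 to 191). Nkg7 was at 7240 against 2300 CPM, Id2 at 1068 against 103, and Ccl4 at 703 against 9.62. The inhibitory receptors Pdcd1, Lag3 and Tigit were at 1133, 703 and 273 CPM, against 229, 144 and 35.7. Tcf7 was at 273 against 746, while Tox was at 612 against 581. Il7r and Dapl1 had no UMI in the 33 cells, which allows up to 48.0 CPM, against 155 and 61.8 CPM in the other rare cells.

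For Cxcr3 and Gpr183 the Ccl5-rich cells gave few UMIs. Cxcr3 was at 52.1 CPM (14.2 to 133, 4 UMIs) in the Ccl5-rich rare cells and 113 (89.6 to 140) in the others, with overlapping intervals, and in middle families at 147 (54.0 to 320, 6 UMIs) and 28.9 (20.4 to 39.9). Gpr183 was at 39.1 (8.06 to 114, 3 UMIs) and 133 (108 to 163) in rare cells. Between cells of under 10 Ccl5 UMIs on both sides, Cxcr3 was at 113 CPM against 28.9 in middle families, a fold of 3.89, and Gpr183 at 133 against 57.9, a fold of 2.30. Cxcr6 was at 64.6 against 19.6, a fold of 3.30, with too few UMIs to be tested. Id2 came to 1.23, Gzmk to 1.23 and AW112010 to 1.42, none past the threshold. Ccl4 came to 0.769, from 7 rare and 16 middle UMIs, too few to be tested. Pdcd1 was at 229 (196 to 267) against 366 (334 to 401), a fold of 0.627.

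**Figure D5:**
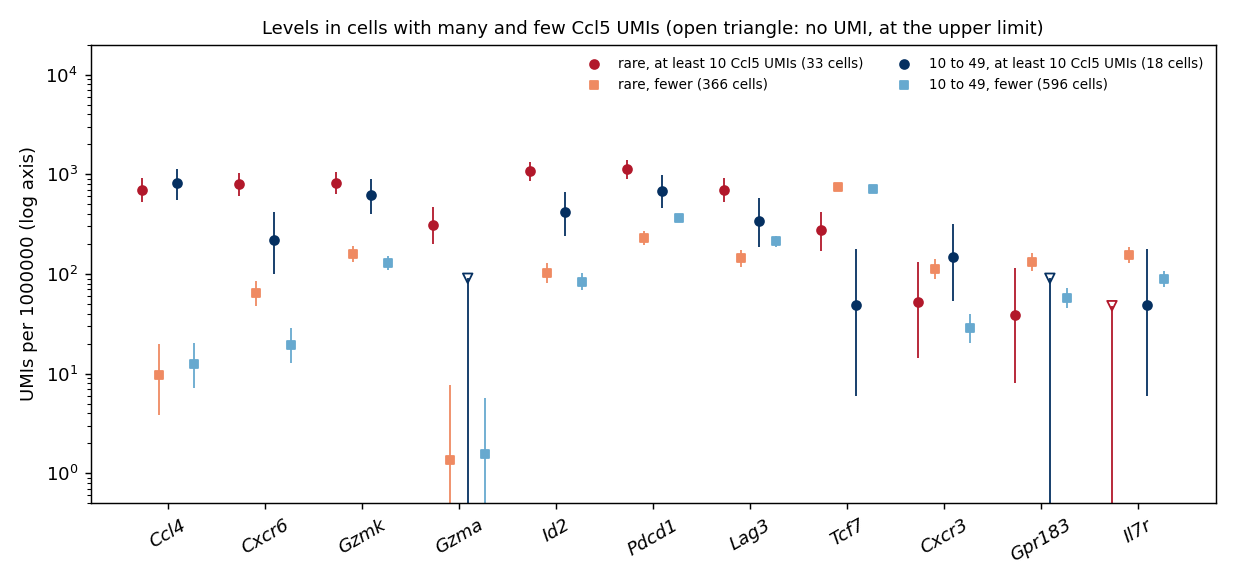
Levels of 11 genes in UMIs per 1000000 on a log axis in cells with at least 10 Ccl5 UMIs (circles) and fewer (squares), in rare and in middle families, with 95% counting intervals; open triangles mark the upper limit where no UMI was found. Cxcr6, Gzma and Id2 lie higher in Ccl5-rich rare cells, and Gpr183 and Il7r are low or not detected there.

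Shares of cells with a UMI show over how many cells a level was spread. After thinning to 1000 UMIs, which left out 21 rare and 30 middle cells, Gpr183 was found in 10.6% (7.67 to 14.1) of rare and 4.79% (3.21 to 6.86) of middle cells, Cxcr3 in 9.79% and 3.77%, and Cxcr6 in 7.67% and 1.71%. For Il7r the shares were 10.6% and 7.19%, and for Dapl1 4.23% (2.44 to 6.78) and 2.91% (1.70 to 4.62). Pdcd1 was found in 16.9% (13.3 to 21.1) of rare and 27.1% (23.5 to 30.9) of middle cells. Unthinned, the shares in rare and middle cells were 14.8% and 7.98% for Gpr183, 14.5% and 5.70% for Cxcr3, 10.0% and 3.09% for Cxcr6, 17.8% and 13.8% for Il7r, 5.51% and 4.40% for Dapl1, and 29.1% and 41.2% for Pdcd1. Tcf7 was found in 45.0% of rare and 46.6% of middle cells after thinning and in 62.4% and 65.5% without. Its level was alike too, with a fold of 1.01 (0.910 to 1.13).

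Free RNA can give a UMI in a cell that does not transcribe a gene, so B cell-like barcodes of the library were counted in the same way. In 15 such barcodes with Cd79a and at least 3 B cell markers, with a median of 2225 UMIs against 1926 in rare and 1945 in middle cells, thinning left Cxcr3, Cxcr6, Il7r, Dapl1, Gzmk and Pdcd1 in 0, which allows up to 21.8%. Gpr183, which B cells also express, was found in 1 and Ccl5 in 2 (13.3%, 1.66 to 40.5). Ccl5 was found in 25.7% (21.3 to 30.4) of rare and 16.4% (13.5 to 19.7) of middle cells. At 15 barcodes these background shares do not separate a low share from free RNA.

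At the borders of the size rule the levels did not step in the same way for every gene. Families of 3 cells, just outside (18 families, 54 cells), had Ccl5 at 1741 CPM (1506 to 2001), against 2904 in families of 2 cells, and Cxcr6 at 247 (164 to 358) against 197. Cxcr3 was at 61.8 and 105 CPM, Gpr183 at 79.5 and 113, and Sostdc1 at 318 (223 to 440) and 138 (95.2 to 194). The families of 9 cells, 4 in number, had Ccl5 at 3601 CPM, and the 2 families of 10 to 12 cells at 119. Over the families of 3 to 9 cells Ccl5 was at 1642 CPM, Cxcr6 at 124, Cxcr3 at 75.6 and Sostdc1 at 316. For Ccl5 and Cxcr6 they resembled rare families more than middle families, and for Sostdc1 they lay nearer to the middle families. Id2 at 229, Gzmk at 258, Il7r at 138, Dapl1 at 62.0, Ccl4 at 67.8 and AW112010 at 471 also lay nearer to the rare level, so these are not particular to rare families. Gpr183 at 87.2 lay between the groups, and Cyb5b at 27.1 and Sucla2 at 34.9 lay below the middle level. The difference between rare families and families of 3 to 9 was not tested.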

How the data were processed

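The RNA matrix deposited by the authors holds raw counts of UMIs per gene and barcode, and the deposited contig table gives counts of UMIs and reads per assembled TCR contig. Tools listed in the submitters' processing notes are cutadapt 1.17, STAR 2.6.1a and featureCounts 2.0.1, and the build listed is GRCm38, in no stated role. Which program assembled the TCR contigs is not given in the sources. Libraries were joined on the barcode. A barcode needed 200 genes and less than 20% of UMIs from mitochondrial genes, which 10338 of 10387 met. No doublet caller was run: doublets were treated as present, and alternatives left out the top 5% of cells by UMIs and rare cells with a TRA of a large family.

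Sums have exact Poisson, folds exact conditional and shares exact Clopper-Pearson 95% intervals (python 3.11.15, numpy 2.4.6, scipy 1.17.1, pandas 2.3.3, matplotlib 3.10.9). The fold calculation was tested on simulated data that held counting error only. Spread between cells or families was not simulated, so false calls from such spread were not measured. Every gene of the lists may be named, and of the genes called the 15 with the largest fold higher and the 10 lower, leaving out TCR segment, immunoglobulin and haemoglobin genes and genes of which 1 barcode holds most UMIs of the higher side. Some listed genes are not reported here. Members, lists and rules were chosen with earlier results of these data known. The split at 10 Ccl5 UMIs and the B cell-like barcodes with Cd79a were chosen after seeing the data, the latter because the planned set, any barcode with at least 2 B cell markers, held T cell transcripts (Tcf7 in 61.4% of 88). Of 25 alternatives, 4 were added after seeing the data.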

Additional observations from a re-analysis of the deposited data

How the results depend on the processing

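Counting error is the only error measured here: 1 library, an unknown number of mice and few UMIs per gene limit every value, and a gene under 100 UMIs could not be called. No paired analysis was possible because no result comes from a test. The number of genes tested changes with the setting. The 39 higher and 32 lower of 3500 genes tested became 62 and 65 of 5679 at a minimum of 50 UMIs. They became 14 and 17 of 1766 at 200, and 108 and 96 of 14604 with no minimum. With each cell weighted equally the counts were 22 and 18 of 3500, of which 18 and 12 were among the 39 and 32. With cells thinned to 1000 UMIs they were 7 and 19 of 1614, of which only 3 and 7 were among those calls. Against middle families of 10 to 19 they were 15 and 14 of 2113, of which only 7 and 2 were among those calls. With families of 3 to 9 cells in place of rare families 29 genes were higher and 18 lower of 3082 tested. Of these, 6 and 1 were among the 39 and 32. Of those 39 and 32, families of 1 cell kept 21 and 22, families of 2 cells 9 and 8, and rare cells without a TRB near, or a TRA of, a large family (316 cells) 29 and 22.

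The summed cytotoxic fold of 1.15 was 1.09 thinned, 1.23 in families of 2 cells and 1.04 without cells of at least 10 Ccl5 UMIs. The inhibitory fold of 0.886 was 1.03 in families of 2 cells, 0.977 against middle families of 10 to 19, 0.743 without Ccl5-rich cells and 1.05 for families of 3 to 9. The naive fold of 0.999 was 0.927 against middle families of 10 to 19, 0.934 with exactly 1 TRA and 0.950 for families of 3 to 9. Ccl4 came to 0.769 without Ccl5-rich cells, from 7 rare and 16 middle UMIs. With families of 3 to 9 in place of rare ones, Cyb5b came to 0.778 (14 against 46 UMIs) and Sucla2 to 0.868 (18 against 53). These values of Ccl4, Cyb5b and Sucla2 had under 100 UMIs and could not be tested. Gbp7 came to 1.05 with families of 3 to 9. The cause was not tested. The 25 settings are not separate checks. Leaving out the cell filter changed nothing, as all rare and middle cells had passed it, and a UMI minimum alters no fold. Another setting holds families of 3 to 9 and no rare cells. Ccl5 was called in 25 of 25 settings (1.70 to 5.65), Cxcr6 in 19 of the 19 in which it could be tested and Cxcr3 in 21 of 21. Over all 25 settings, including those with too few UMIs to be tested, the Cxcr6 fold ran from 3.30 to 7.64. The Cxcr3 fold ran from 2.13 to 4.48 over the same 25. Gpr183 was called in 21 of 23, Sostdc1 in 24 of 25 and Gzmk in 20 of 25.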
